A study of Homo sapiens with 6 samples.

Results

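The BCL2 family sets whether a stressed cell keeps or loses its mitochondrial outer membrane, and 10 of its genes were followed here by RNA sequencing of DCIS.COM cells with control or reduced levels of BCL9. They were taken by gene symbol from the 58676 genes of the deposited table. MCL1, BCL2L1, BCL2A1 and BCL2 encode pro-survival proteins, BAX and BAK1 encode the effectors, and BID, BCL2L11, BAD and BIK encode BH3-only proteins. DCIS.COM is an established human breast line of the basal type used as a model of ductal carcinoma in situ (DCIS). The NS control group (n = 3) carried a non-silencing shRNA in the lentiviral PLKO.1 vector and the BCL9 KD group (n = 3) carried a single BCL9 shRNA in that vector. BCL9 is a co-activator of β-catenin, and the comparison addressed which transcripts depend on it in these cells. Each sample was the RNA of a separate flask of transduced cells grown in medium with horse serum, so p-values measure the spread between flasks of a single line and a single shRNA.

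In the mitochondrial pathway of apoptosis, activated BAX and BAK1 proteins assemble into pores in the outer membrane and release cytochrome c. Pro-survival proteins hold the effectors and the BH3-only proteins in a groove, and BH3-only proteins, induced or modified by stress, occupy that groove or engage the effectors directly. Much of this control is exerted on the proteins, by phosphorylation, cleavage and degradation, and RNA levels show only the transcript side of it. In breast epithelium, death of cells that lose contact with the basement membrane clears the lumen of the duct, and BCL2L11 (BIM) is known for its part in that process.

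The level of a gene is given in FPKM, reads scaled to the deposited gene length and to the counted reads of the sample. Comparisons between genes, such as orders, sums and ratios, also depend on that length, which was 11765 bases for BCL2 and 953 for BIK. The length of the transcripts present was not measured. The change of a gene is given as the log2 fold change of FPKM + 0.5, BCL9 KD minus NS control, from limma fitted to the 13745 genes with a mean of at least 0.5 FPKM. A gene was called at a Benjamini-Hochberg adjusted p under 0.05 over all of them. The added 0.5 FPKM shrinks the change of weakly expressed genes below the ratio of their levels, which matters here for BCL2, BIK, BAD and BCL2L11.

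Promoter stretches are shown for the 2 members whose promoter held a motif of a factor tied to this study, STAT or TCF/LEF. The windows were RefSeq promoters of GRCh38.p14, 300 bases each, from 250 before to 50 after the transcript start, and 8 of the 10 genes matched. MCL1 and BIK were not matched. The STAT motif searched was TTCNNNGAA, which reads the same on both strands, and the TCF/LEF core was CTTTGAT on either strand. The stretches read 5′ to 3′ on the minus strand, the strand of both genes, with the motif in capitals.
BCL2A1 (chr15:79971346-79971374): aggaagtggcTTCTCTGAAacattttcct
BAK1 (chr6:33580428-33580454): gggggagaagATCAAAGacaaggattg
The STAT match lay 168 to 160 bases before a BCL2A1 start, inside the gene span of the deposited table, and the TCF/LEF match lay 168 to 162 bases before a BAK1 start. The STAT motif was found in 7.66% of 35116 promoter windows and the TCF/LEF core in 2.62%. The 8 matched genes had 14 of these windows. These matches describe the letters of the windows, and binding was not measured here.

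The samples held between 15222452 and 22712638 counted reads in NS control and between 15665714 and 26949026 in BCL9 KD. BCL9 itself was at 6.25, 6.24 and 5.34 FPKM in NS control replicates 1 to 3 and at 2.86, 2.78 and 2.59 FPKM in BCL9 KD replicates 1 to 3, so that 46.1% of the control level remained (log2 fold change −0.99, standard error 0.0933, limma adjusted p = 0.00773). The basal keratins KRT5 and KRT17 stood at 398 ± 25.9 and 570 ± 68.6 FPKM in NS control (SD, n = 3), and 0 of the 7 basal and epithelial markers were called (2 had an unadjusted limma p under 0.05). ESR1, the estrogen receptor, averaged 0.0530 FPKM in NS control and PGR was listed at 0, as the basal label implies. Of the 7 fibroblast and endothelial markers, 2 were tested and the endothelial adhesion molecule PECAM1 was called, at 2.10 ± 0.328 FPKM in NS control and 3.45 ± 0.412 FPKM in BCL9 KD (SD, n = 3, limma adjusted p = 0.0477), while VWF and CDH5, which define endothelium, were at 0.0534 FPKM or below in every sample. The sum of that list, most of which was PECAM1, was 2.46 to 3.03 FPKM in NS control and 4.05 to 4.69 FPKM in BCL9 KD. COL1A1, the other tested gene, averaged 0.517 FPKM in NS control and 0.594 FPKM in BCL9 KD and was not called. The part of these genes in the results was not tested. In bulk RNA, fewer cells of a type and less RNA per cell cannot be told apart.

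All 10 BCL2 family genes passed the filter on low expression, and 1 of them, BCL2A1, was called. Among all genes tested 5.87% were called, and 2.96% were called with a higher level in BCL9 KD, so that 1 of 10 members is near the background. The median log2 fold change of the members was 0.04, equal at this precision to the 0.04 of all genes tested, and their changes ran from −0.41 for BAD to 0.82 for BIK. The median absolute log2 fold change was 0.21 over the members and 0.20 over all genes tested. BCL9 KD and NS control values did not overlap for 3 members, BCL2A1 above and BCL2 and BAD below, against 34.2% of all genes tested.

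**Figure D1:**
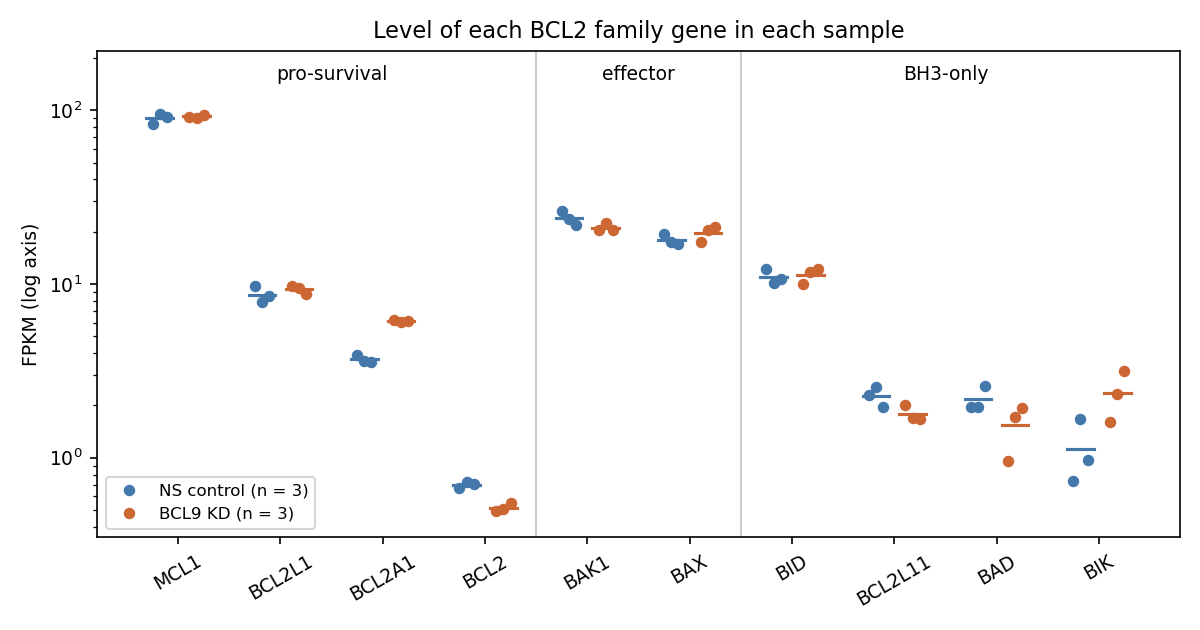
Level of each BCL2 family gene in FPKM on a log axis, by role, with a point per sample (NS control blue, BCL9 KD orange, n = 3 each) and a line at the group mean. MCL1 lies near 90 FPKM in both groups, BCL2 lies under 1 FPKM, and BCL2A1 shows a clear gap between the groups.

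BCL2A1 was the pro-survival gene that rose on BCL9 knockdown. BCL2A1 (ENSG00000140379, chromosome 15, 79960889 to 79971446, minus strand, GRCh38) encodes A1/BFL-1, a short-lived pro-survival protein best known as a target of NF-κB in leukocytes. Its level was 3.92, 3.59 and 3.56 FPKM in NS control replicates 1 to 3 and 6.23, 6.07 and 6.15 FPKM in BCL9 KD replicates 1 to 3. All BCL9 KD samples lay above all NS control samples, and the spread within either group was small beside the gap. The group means were 3.69 ± 0.202 and 6.15 ± 0.0846 FPKM (SD, n = 3), a ratio of 1.67.
The log2 fold change of BCL2A1 was 0.67 (standard error 0.0763, 95% interval 0.49 to 0.85, limma adjusted p = 0.0117). By unadjusted p it ranked 61st among the genes tested, and the two-sided exact permutation test gave p = 0.1, the smallest that 3 samples against 3 allow. The level rests on 97, 79 and 59 reads in NS control and 120, 178 and 105 reads in BCL9 KD. The direction held in all 19 alternative settings, but the call was lost in 6 of them. Among these were the fits without NS control replicate 2 (limma adjusted p = 0.0802), without BCL9 KD replicate 2 (limma adjusted p = 0.0899) and without BCL9 KD replicate 3 (limma adjusted p = 0.102).
Base composition moved with this result. BCL2A1 transcripts have a GC content of 40.3%, the lowest of the 10 members, against a median of 49.2% over the genes tested. The 2053 tested genes within 2 percentage points of that GC content had a median log2 fold change of 0.22, while the neighbours of the other 9 members had medians between −0.06 and 0.09. With each sample corrected for GC content, the log2 fold change of BCL2A1 was 0.49 and its limma adjusted p 0.0588.
Since BCL2A1 is a leukocyte gene in blood, leukocyte markers are set beside it. PTPRC, CD3E and LYZ were at 0.0641 FPKM or below in every sample. CD14 was at 0.560, 0.288 and 0.418 FPKM in NS control and 1.38, 0.964 and 0.778 FPKM in BCL9 KD (limma adjusted p = 0.0811, and 0.0457 with GC correction). The part of CD14-positive cells in the BCL2A1 result was not tested.

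MCL1 (ENSG00000143384, chromosome 1, 150574551 to 150579738, minus strand) encodes a pro-survival protein of rapid turnover and had by far the most RNA of the 10 members. Its level was 83.5, 95.4 and 91.7 FPKM in NS control and 92.0, 90.8 and 93.8 FPKM in BCL9 KD. The lowest and the highest sample were both NS control, and the BCL9 KD values lay between them. The log2 fold change was 0.03 (95% interval −0.14 to 0.20, limma adjusted p = 0.780), with 6100 reads or more in every sample.

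BCL2L1 (ENSG00000171552, chromosome 20, 31664452 to 31723989, minus strand), whose long isoform BCL-XL is the pro-survival form and whose short isoform BCL-XS is not, was counted as a whole gene. Its level was 9.69, 7.84 and 8.54 FPKM in NS control and 9.71, 9.51 and 8.74 FPKM in BCL9 KD. The groups overlapped, with NS control replicate 1 level with the highest BCL9 KD sample. The estimate was 0.10 on the log2 scale (95% interval −0.13 to 0.33, limma adjusted p = 0.520).

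BCL2 (ENSG00000171791, chromosome 18, 63123346 to 63320128, minus strand), the founding member of the family and a gene of hormone receptor-positive breast epithelium, had the lowest FPKM of the 10. Its level was 0.674, 0.723 and 0.704 FPKM in NS control and 0.495, 0.505 and 0.548 FPKM in BCL9 KD. All BCL9 KD samples lay below all NS control samples, with means of 0.700 ± 0.0247 and 0.516 ± 0.0281 FPKM (SD, n = 3). The ratio of the means was 0.737, while the log2 fold change on the FPKM + 0.5 scale was −0.24 (95% interval −0.59 to 0.11, limma adjusted p = 0.324). The gene was not called. It had between 101 and 180 reads per sample.

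**Figure D2:**
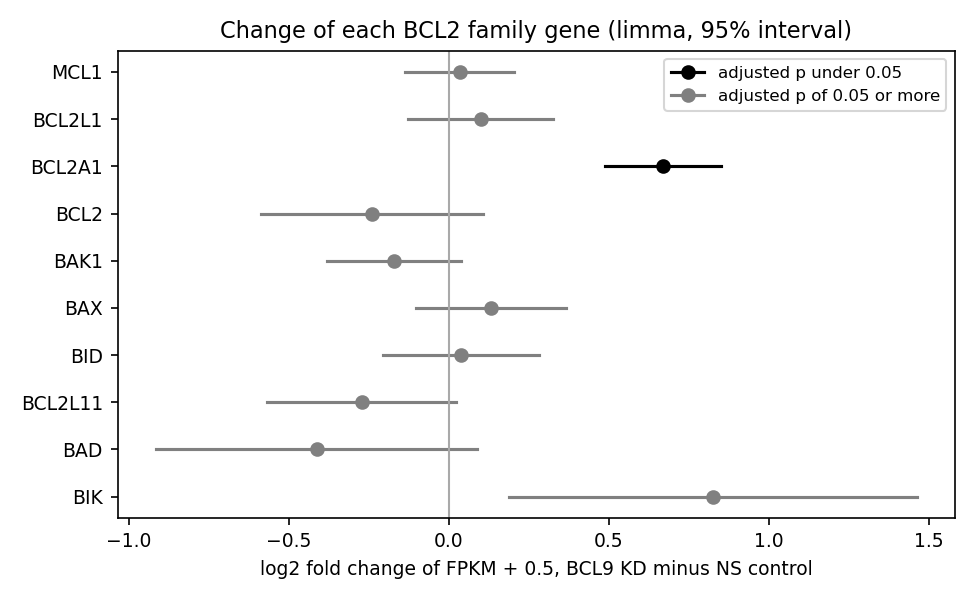
Log2 fold change of FPKM + 0.5 (BCL9 KD minus NS control) of each BCL2 family gene, with its 95% interval from limma. BCL2A1, in black, is called, and the intervals of the other genes, in grey, span 0 except that of BIK, which starts at 0.19.

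Neither effector was called, and their estimates had opposite signs. BAX (ENSG00000087088, chromosome 19, 48954815 to 48961798, plus strand), the effector that is largely cytosolic until activated, was at 19.3, 17.6 and 17.1 FPKM in NS control and 17.3, 20.6 and 21.4 FPKM in BCL9 KD. BCL9 KD replicate 1 lay among the NS control values and the other two lay above them. The estimated log2 fold change was 0.13 (95% interval −0.10 to 0.36, limma adjusted p = 0.417), and 0.22 with GC correction.
BAK1 (ENSG00000030110, chromosome 6, 33572547 to 33580293, minus strand), the effector that resides in the mitochondrial membrane, was at 26.2, 23.6 and 21.9 FPKM in NS control and 20.4, 22.5 and 20.4 FPKM in BCL9 KD. BCL9 KD replicate 2 lay above NS control replicate 3, so the groups overlapped. Its log2 fold change was −0.17 (95% interval −0.38 to 0.04, limma adjusted p = 0.253), and −0.08 with GC correction.

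Among the BH3-only genes, BIK had the largest estimate of the 10 members and was not called. BIK (ENSG00000100290, chromosome 22, 43110748 to 43129712, plus strand) encodes a BH3-only protein of the endoplasmic reticulum. Its level was 0.739, 1.66 and 0.965 FPKM in NS control and 1.60, 2.34 and 3.15 FPKM in BCL9 KD. NS control replicate 2 lay just above BCL9 KD replicate 1, and every other BCL9 KD value lay above every NS control value. The ratio of the means was 2.11 and the log2 fold change 0.82 (95% interval 0.19 to 1.46, limma adjusted p = 0.109). The counts were 16, 32 and 14 reads in NS control and 27, 60 and 47 reads in BCL9 KD, the fewest of the 10 members in every sample. Its log2 fold change stayed between 0.63 and 1.08 over the alternative settings, with limma adjusted p between 0.0616 and 0.318.

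BAD (ENSG00000002330, chromosome 11, 64269830 to 64284704, minus strand) encodes the BH3-only protein that AKT phosphorylation keeps inactive. Its level was 1.96, 1.97 and 2.58 FPKM in NS control and 0.961, 1.72 and 1.94 FPKM in BCL9 KD. The groups did not overlap, but BCL9 KD replicate 3 lay close under the lowest NS control sample. The log2 fold change was −0.41 (95% interval −0.92 to 0.09, limma adjusted p = 0.253), and without BCL9 KD replicate 1, which had 29 reads, it was −0.19. BAD overlaps GPR137 on the opposite strand, a gene at 4.31 ± 0.216 FPKM in NS control and 4.56 ± 0.0695 FPKM in BCL9 KD (SD, n = 3). Since a strand setting of the counting is not given in the sources used here, the level of BAD is uncertain.

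BCL2L11 (ENSG00000153094, chromosome 2, 111119378 to 111168447, plus strand) was at 2.28, 2.56 and 1.95 FPKM in NS control and 2.01, 1.68 and 1.67 FPKM in BCL9 KD. The groups overlapped by a single sample on each side, BCL9 KD replicate 1 and NS control replicate 3. The difference was −0.27 on the log2 scale (95% interval −0.57 to 0.02, limma adjusted p = 0.211).
BID (ENSG00000015475, chromosome 22, 17734138 to 17774770, minus strand), which caspase-8 cleaves to link the death receptors to the mitochondria, was at 12.1, 10.2 and 10.7 FPKM in NS control and 10.03, 11.8 and 12.1 FPKM in BCL9 KD. The BCL9 KD samples held both the lowest and the highest value, the highest level with NS control replicate 1. Its log2 fold change was 0.04 (95% interval −0.20 to 0.28, limma adjusted p = 0.828).
BCL2L1, MCL1, BAK1, BCL2 and BID also overlap another gene in the table, none of which averaged 1 FPKM in either group.

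The order of the members by level was nearly the same in both groups. In NS control it ran MCL1, BAK1, BAX, BID, BCL2L1, BCL2A1, BCL2L11, BAD, BIK and BCL2, and BCL2L11 and BAD were the neighbours whose sample ranges overlapped. In BCL9 KD, BIK stood above BCL2L11 and BAD, and the ranges of BAK1 and BAX, of BIK and BCL2L11, and of BCL2L11 and BAD overlapped. MCL1 RNA was 3.78 times that of BAK1, the next gene, in NS control and 4.37 times in BCL9 KD. The sum of the 10 genes was 162 ± 2.99 FPKM in NS control and 166 ± 4.76 FPKM in BCL9 KD (SD, n = 3).

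Sums and ratios within a sample describe the balance of the family, and they were chosen after the values were seen and are given with no test. Lack of overlap is common among ratios: it was found for 33.6% of all ratios between 2 of the 13299 tested genes with no value of 0, and for 24 of the 45 ratios between 2 members (53.3%), which share genes and are not independent. BCL2A1 took part in 8 of those 24, BCL2 in 6, BAX, BAK1, BID and BIK in 5 each, and the other members in 3 or 4. The pro-survival sum was 103 ± 5.00 FPKM in NS control and 108 ± 1.21 FPKM in BCL9 KD, the effector sum was 41.8 ± 3.32 and 40.9 ± 2.78 FPKM, and the BH3-only sum was 16.5 ± 0.496 and 17.0 ± 2.19 FPKM (SD, n = 3). The groups overlapped for each of these sums. Pro-survival over effector RNA was 2.15, 2.61 and 2.68 in NS control and 2.87, 2.48 and 2.61 in BCL9 KD, again overlapping.
MCL1 made up 87.3 ± 1.70% of the pro-survival RNA in NS control and 85.2 ± 0.560% in BCL9 KD (SD, n = 3), so the pro-survival sum mostly follows MCL1. Without MCL1, pro-survival over effector RNA was 0.314, 0.295 and 0.329 in NS control and 0.436, 0.373 and 0.369 in BCL9 KD. Here all BCL9 KD values lay above all NS control values.
BCL2A1 made up 4.01, 3.33 and 3.41% of the pro-survival RNA in NS control and 5.75, 5.67 and 5.63% in BCL9 KD. BCL2L1 RNA was 2.47, 2.19 and 2.40 times that of BCL2A1 in NS control and 1.56, 1.57 and 1.42 times in BCL9 KD. BCL2A1 RNA was 5.82, 4.96 and 5.06 times that of BCL2 in NS control and 12.6, 12.0 and 11.2 times in BCL9 KD. These are 2 of the 8 ratios with BCL2A1 that did not overlap.
BAX over BAK1 RNA was 0.737, 0.744 and 0.781 in NS control and 0.850, 0.913 and 1.05 in BCL9 KD, with no overlap, and neither gene was called. BIK over BAD RNA was 0.377, 0.843 and 0.374 in NS control and 1.67, 1.36 and 1.62 in BCL9 KD, so that BIK exceeded BAD in every BCL9 KD sample and in no NS control sample. BIK and BAD have few reads, and the level of BAD is uncertain, as described above.

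**Figure D3:**
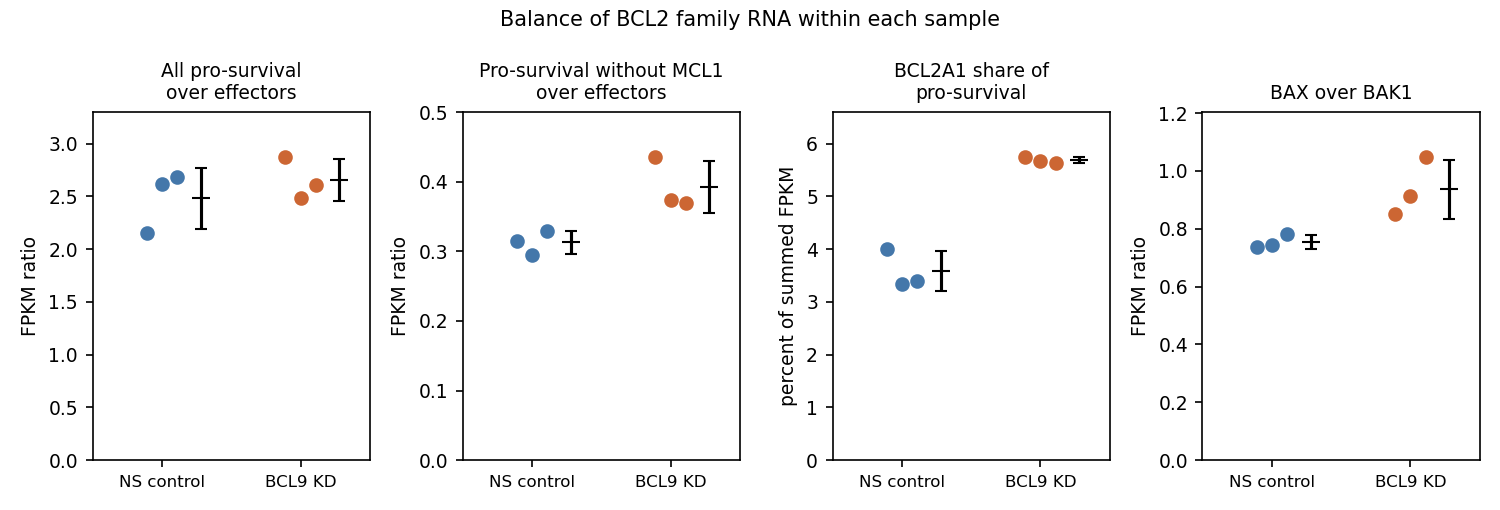
Ratios and shares of FPKM within each sample (points, NS control blue, BCL9 KD orange) with the mean and SD of 3 samples beside them, on axes that start at 0. The groups overlap for all pro-survival over effector RNA and stand apart for the ratio without MCL1, for the BCL2A1 share and for BAX over BAK1.

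Across the 6 samples, 3 genes outside the apoptosis lists followed BCL2A1 most closely by Pearson correlation of log2(FPKM + 0.5), among 6536 genes with a mean of at least 5 FPKM. They were IGFBP3, which binds insulin-like growth factors, at r = 0.999, CCDC71L at r = 0.997, and the adhesion molecule CEACAM1 at r = 0.997. IGFBP3 was at 21.2, 19.4 and 18.7 FPKM in NS control and 32.4, 32.0 and 32.5 FPKM in BCL9 KD. Each r rests on the same 6 libraries, in 2 groups that differ in level, and 309 of the genes compared had r above 0.9.

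Outside the 10 members, 58 genes of the apoptosis pathway were listed by known role in 6 lists, 46 of them passed the filter, and 5 were called, all lower in BCL9 KD. The share called was 10.9%, against 2.91% of all genes tested that were called lower and 5.87% called in either direction. Their median log2 fold change was −0.03 beside 0.04 over all genes tested, and 16 of the 46 did not overlap between the groups (34.8%, against 34.2% of all genes).
Among 8 tested genes of the wider BCL2 family, BNIP3, a mitophagy receptor induced by hypoxia, was lower in BCL9 KD, with 24.5 ± 0.609 FPKM in NS control and 18.9 ± 0.653 FPKM in BCL9 KD (SD, n = 3, log2 fold change −0.36, limma adjusted p = 0.0318). The other 7 were not called. BOK, a BAX-like protein, was at 8.70 ± 0.777 and 6.55 ± 0.278 FPKM (limma adjusted p = 0.0511), and is named after its values were seen, as are PMAIP1 and BBC3. The p53-induced BH3-only genes PMAIP1 (NOXA) and BBC3 (PUMA) had log2 fold changes of 0.45 and 0.20 (limma adjusted p = 0.236 and 0.148).
In the death receptor list, 2 of 11 tested genes were called, TNFRSF10A and TNFRSF10B, the TRAIL receptors that activate caspase-8 and through it BID. TNFRSF10A was at 15.3, 15.7 and 15.4 FPKM in NS control and 12.4, 11.9 and 12.6 FPKM in BCL9 KD (log2 fold change −0.32, limma adjusted p = 0.0389). TNFRSF10B was at 37.1, 40.2 and 37.5 FPKM in NS control and 29.7, 30.1 and 29.2 FPKM in BCL9 KD (log2 fold change −0.36, limma adjusted p = 0.0324). Both receptors were lower in each BCL9 KD sample than in every NS control sample.
Of 4 tested genes for turnover of BCL2 family proteins, HUWE1, a ubiquitin ligase of MCL1, was at 50.2 ± 5.99 FPKM in NS control and 33.0 ± 4.13 FPKM in BCL9 KD (SD, n = 3) and was called (log2 fold change −0.60, limma adjusted p = 0.0422). MCL1 RNA was not called, and MCL1 protein was not measured in these files. Of 12 tested apoptosome and caspase genes, DFFA, the inhibitor of the caspase-activated DNase, fell from 15.5 ± 1.20 to 11.97 ± 0.386 FPKM (log2 fold change −0.35, limma adjusted p = 0.0499), and the other 11 were not called. The call of DFFA was at the threshold and was lost with an added 0.1 FPKM, with robust fitting and with median-of-ratios scaling (limma adjusted p = 0.0505, 0.05004 and 0.0613). DIABLO, which has 2 entries at the same position in the table, was under the filter and its level is uncertain.
None of the 5 tested inhibitors of apoptosis and none of the 6 mitochondrial pore and cristae genes were called by limma, with 1 and 0 at an unadjusted p under 0.05. Their largest estimates were 0.75 for BIRC3, an NF-κB target, at 1.44 ± 0.763 and 2.58 ± 0.244 FPKM (SD, n = 3, limma adjusted p = 0.150), and 0.36 for OPA1, which shapes the cristae (limma adjusted p = 0.319). Both estimates moved with the NS control samples: without replicate 1 they were 0.42 for BIRC3 and 0.11 for OPA1, and without replicate 3 they were 1.02 and 0.57, where BIRC3 was called (limma adjusted p = 0.0447) and OPA1 was not (0.0765).
With GC correction BNIP3, TNFRSF10A and TNFRSF10B had limma adjusted p of 0.0542, 0.0720 and 0.0568, while DFFA and HUWE1 stayed called at 0.0292 and 0.0271. The same correction called BOK, the apoptosome scaffold APAF1 and the MCL1 deubiquitinase USP9X (limma adjusted p = 0.0223, 0.0324 and 0.0367), each lower in BCL9 KD, so that the count remained 5. APAF1 and USP9X are named after their values were seen. All 5 calls were lost without NS control replicate 2, without BCL9 KD replicate 2 and without BCL9 KD replicate 3, while 3 pathway genes were called without NS control replicate 1, 9 without NS control replicate 3 and 1 without BCL9 KD replicate 1.

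**Figure D4:**
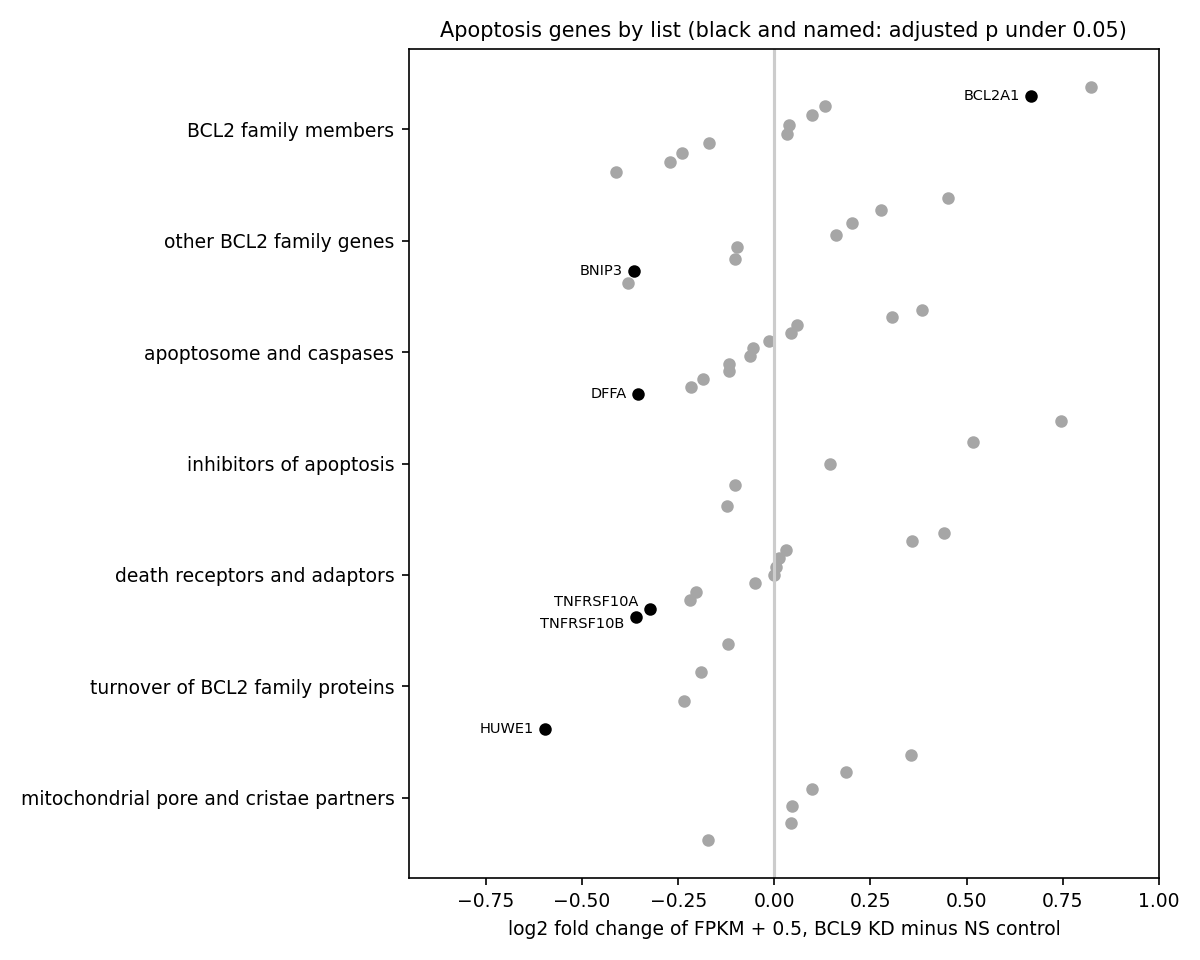
Log2 fold change of FPKM + 0.5 (BCL9 KD minus NS control) of each tested gene in the BCL2 family and in 6 other apoptosis lists, a point per gene. The black, named points have a limma adjusted p under 0.05, 1 member above 0 and 5 other genes below 0.

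**Figure D5:**
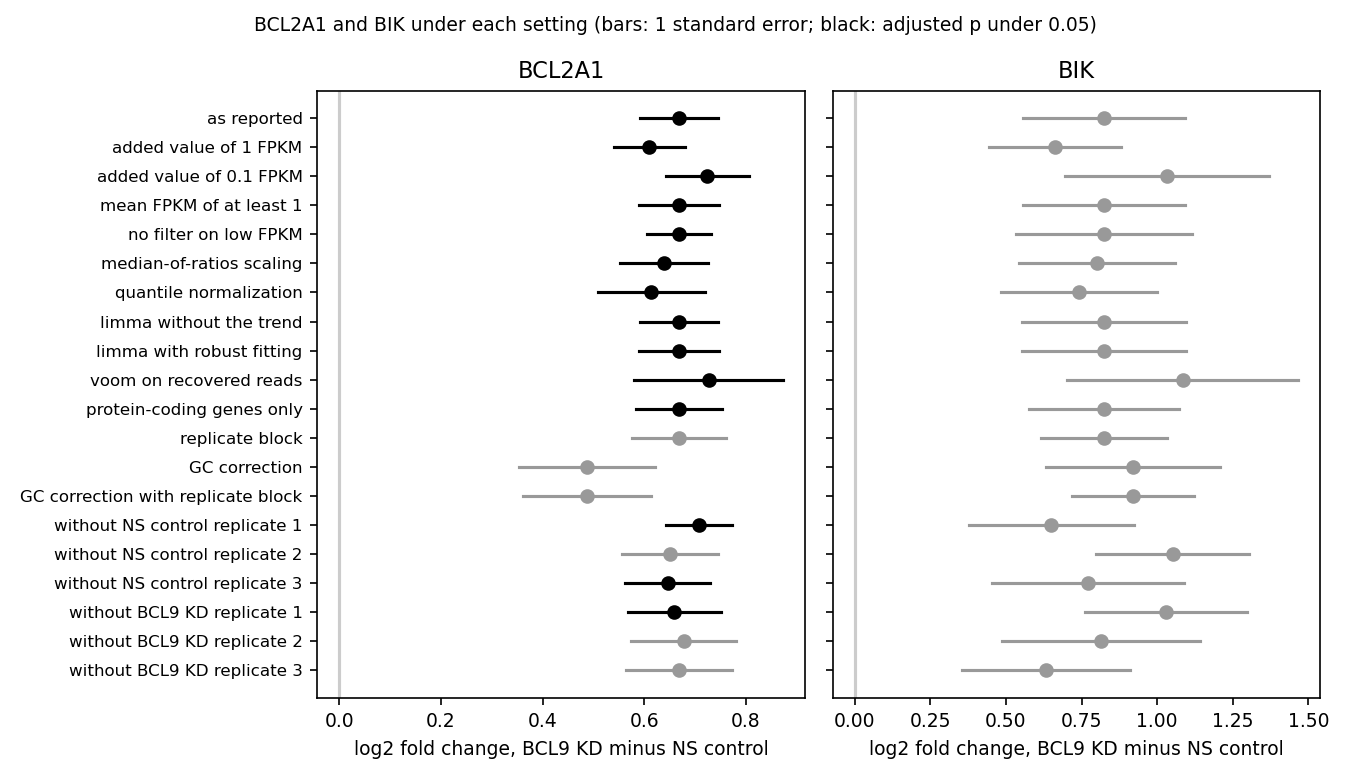
Log2 fold change of BCL2A1 and BIK with its standard error as reported and under each of the 19 alternative settings, black where the limma adjusted p is under 0.05. BCL2A1 lies between 0.49 and 0.73 and is called in 13 alternatives, and BIK lies between 0.63 and 1.08 and is called in none.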

How the data were processed

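RNA of 6 flasks (3 NS control, 3 BCL9 KD, grouped by their labels) was sequenced as paired ends after preparation with the NEB Next Ultra kit. Per the labels and methods, the authors used CASAVA, STAR and HTSeq 0.6.1 with hg38, then derived FPKM from the count per gene and its length. The deposited table holds these FPKM values and, in another unit, the length of each gene in bases. In the methods Tophat is named for parsing alignments and Cufflink for no given step, and fewer biological replicates are named there than in the labels. Gene positions in the table overlapped GRCh38 for 99.88% of 33520 genes compared and GRCh37 for 9.89% of 56458.

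The authors tested counts with DESeq2 and edgeR. Since FPKM values were deposited, the test here was limma with its mean-variance trend, applied to log2(FPKM + 0.5) for genes with a mean of at least 0.5 FPKM, without covariates, Benjamini-Hochberg adjusted, with an adjusted p under 0.05 as the threshold. FPKM times gene length gave whole reads for 100% of values within a tolerance of 0.1, which gave depth and reads per gene. Of the called genes, 30 averaged under 10 reads. The read numbers give counting error only, and no molecular identifiers are named for the libraries. Replicates of a group had Pearson r between 0.964 and 0.987, so no sample was a duplicate.

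The 10 members and the pathway lists were chosen with earlier results of these data known. Genes named were all members, BCL9, the called genes of each pathway list or, with none called, the one with the largest change, and the 3 genes most like the called member with the largest change. Outside this rule, BOK, PMAIP1, BBC3, DIABLO, APAF1, USP9X and the cell type markers are named, chosen after their values were seen or, for the markers, to check the cells. Gene GC content came from transcripts of the GRCh37 annotation, known for 98.8% of the genes tested, and was corrected with a loess curve of span 0.3. A leukocyte marker is not reported here. The code was tested on simulated data. Models were fitted in R 4.3.3 with limma 3.58.1, and tables and figures were made in Python 3.11 with pandas 2.3.3, numpy 2.4.6, matplotlib 3.10.9 and scipy 1.17.1. The alternatives were another added value, filter, scaling or variance model, voom on the recovered reads, protein-coding genes only, GC correction, the replicate block, and leaving out each sample.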

Additional observations from a re-analysis of the deposited data

How the results depend on the processing

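The change of BCL2A1 kept its direction in 19 of 19 alternatives (log2 fold change 0.49 to 0.73, limma adjusted p 0.00557 to 0.102) and was called in 13. The other members were called in none of the alternatives run for them (lowest limma adjusted p 0.0616, for BIK). BCL2, at the lowest level, was not tested with a filter of 1 FPKM. The log2 fold change of MCL1 turned to −0.0413 with quantile normalization and ran from −0.0200 (without NS control replicate 1) to 0.0756 with each sample left out, and that of BID ran from −0.0122 (without BCL9 KD replicate 3) to 0.119, with −0.0113 without NS control replicate 2. Among uncalled members, leaving out a sample also moved BCL2L1 (0.03 to 0.18), BAX (0.07 to 0.22), BAK1 (−0.23 to −0.10) and BAD (−0.56 to −0.19) by over 1.5 times. That factor is relative to the estimate from all 6 samples, from which BCL2L11 (−0.36 to −0.20) and BIK (0.63 to 1.05) moved less. GC correction passed the factor for BCL2L1 (0.20), BAX (0.22), BAK1 (−0.08), MCL1 (0.08) and BID (0.13). So did voom (−0.44) and an added 0.1 FPKM (−0.38) for BCL2. Median-of-ratios scaling gave 0.002 for MCL1 and 0.007 for BID, and quantile normalization gave 0.02 for BID. The cause was not tested.

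The 807 genes called became 142 without a filter, 332 without the trend, 1403 with voom, 1409 for protein-coding genes, 1648 with GC correction and 5 to 1712 with a sample left out. The count of members called became 0 with GC correction and 0 to 1 with a sample left out. The 5 pathway genes called became 0 without a filter, 0 without the trend and 0 to 9 with a sample left out, and 4 with an added 0.1 FPKM, robust fitting or median-of-ratios scaling. The replicate numbers 1 to 3 of the labels were not used as pairs, since the deviations from the group mean correlated at −0.0795 on average between samples sharing a number (0.0387 for different numbers). With a replicate block, 0 genes were called by limma (3235 at an unadjusted p under 0.05), 0 members and 0 pathway genes, and BCL2A1 had an adjusted p of 0.0788. With GC correction and the replicate block, the counts were 189 genes, 0 members and 0 pathway genes, with an adjusted p of 0.0972 for BCL2A1. Genes with few reads, BIK and BAD among them, have wide intervals at this depth.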
